A study of Homo sapiens with 6 samples.

Results

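The 2-oxoglutarate dioxygenases described here are 35 genes for demethylases and hydroxylases of histones, DNA, RNA, other proteins and small molecules, chosen by gene symbol from the 60708 genes of a table of read counts. Enzymes of this superfamily use molecular oxygen, ferrous iron and 2-oxoglutarate to oxidize a substrate, and release succinate and carbon dioxide. The prolyl hydroxylases that mark HIFα proteins for recognition by VHL belong to the same superfamily, and several of the histone demethylases are known to be induced in hypoxia. Among the members are JmjC domain proteins, many of which remove methyl groups from histone lysines, and TET proteins, which oxidize 5-methylcytosine in DNA. AlkB homologs, also among the members, act on alkylated DNA, RNA and protein.

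RNA-seq was run on Caki-1 cells, an established human line from clear cell renal carcinoma with wild-type VHL. The control group, VC, was infected with the Lenti-CRISPR vector alone, and the VHL-KO group carried a CRISPR/Cas9 knockout of VHL made with a lentiviral guide RNA, puromycin selection and screening of clones. Each group had 3 samples. The VHL-KO cells were clonal, so that the knockout and the choice of clone cannot be told apart, and nothing states whether the samples of a group came from separate cultures, so that p-values measure only the spread between these samples, which may be technical. Counts per sample ranged from 28463579 to 34881739 for VC and from 22628246 to 29139722 for VHL-KO. Levels are given as CPM scaled by edgeR's TMM factors, and a gene was called when its adjusted p was under 0.05.

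VHL, at 10141778 to 10153667 on chromosome 3 of GRCh38, has 3 exons in its canonical transcript. Its mRNA was at 42.6, 37.8 and 40.1 CPM in the VC samples and at 34.8, 30.4 and 30.5 CPM in the VHL-KO samples. The groups did not overlap, and the log2 fold change was -0.33 ± 0.11 (estimate ± standard error, Benjamini-Hochberg adjusted p = 0.0109, edgeR quasi-likelihood test). With offsets that remove each library's trend with GC content and transcript length, it was -0.04 (adjusted p = 0.729, same edgeR test, 0.000292 to 0.729 across alternatives). With library size alone it was -0.53, leaving out VC replicate 1 gave -0.28, and leaving out VHL-KO replicate 2 gave -0.30 (adjusted p = 0.000292, 0.0862 and 0.0621, same edgeR test). The size of the difference in VHL mRNA thus depended on the fit. Annotation on the opposite strand covers 23.5% of the exonic bases of VHL, and whether reads were counted by strand is not stated.

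Genes known to be induced by HIF separated the groups by a wider margin. Of 14 HIF target genes, 13 were called higher and 1 was called lower, with a median log2 fold change of 2.19. Among all genes tested, 28.5% were called higher and 31.2% lower. CA9, a carbonic anhydrase, had counts of 0, 0 and 2 for VC and of 288, 247 and 233 for VHL-KO, a ratio of 562 per library with a 95% exact interval of 155 to 4647 that covers counting error only. CA9 had the largest value of the list, so that its size within that interval cannot move the median of 2.19. CA9 reached 10 reads only in VHL-KO samples. With 10 reads required in every sample, 12 genes of the list were called higher. NDRG1 rose by 6.03, VEGFA by 2.485 and SLC2A1, a glucose transporter, by 0.70 on the log2 scale. EGLN3, which encodes a HIF prolyl hydroxylase and is itself a 2-oxoglutarate oxygenase, was the exception. It was at 2.02, 1.38 and 1.76 CPM in VC and 0.374, 0.926 and 0.891 CPM in VHL-KO samples, and fell by 1.26 in log2 units (adjusted p = 0.00337, same edgeR test).

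The label of the cells was checked against markers. Of 12 renal epithelial markers 10 had enough reads to be tested, with KRT8 as the most abundant, whereas PAX2 was at 0 in all samples and CDH1 had at most 3 counts in a sample. Their summed level was between 2025 and 2279 CPM in VC and between 2677 and 2764.5 CPM in VHL-KO samples, but single markers went both ways. Of the 10 tested, 5 were called higher and 3 lower, and 3 were higher and 4 lower with offsets for GC content and length. CDH16 had a log2 fold change of 3.42, LHX1 of -1.67 and EPCAM of -1.42. The most abundant marker, KRT8, was at 0.51 and KRT18 at 0.37, and with the offsets KRT8 was at 0.05 and not called and KRT18 at -0.135 and called lower. Of 10 markers of immune, endothelial, stromal and red blood cells, 2 were tested, PDGFRB and PECAM1. CD3E, LUM and HBB were at 0 in all samples, and the summed level of the list was 8.40, 11.0 and 7.79 CPM in VC and 2.88, 2.92 and 3.14 CPM in VHL-KO samples, most of it from PDGFRB. PDGFRB fell by 1.94 on the log2 scale, whereas the endothelial marker PECAM1, with counts of 1, 5 and 0 for VC and of 14, 7 and 9 for VHL-KO, was called higher at 2.725 (adjusted p = 0.0117, same edgeR test). PECAM1 reached the 10 reads needed for testing only in VHL-KO replicate 1, in the group where it is high. Its call is therefore a description only. Without VC replicate 3 PECAM1 was at 2.11 and not called (adjusted p = 0.0648, same edgeR test, 0.00214 to 0.0648 across alternatives), and over the alternatives its value lay between 2.11 and 4.57.

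All 35 members had at least 10 reads in at least 1 sample and could be tested among 17401 genes, and 34 had at least 10 reads in every sample. The exception was TET1, with a lowest count of 8. Of the 35 members, 9 were called higher and 15 lower in VHL-KO cells, and 11 were not called. In total 24 members (68.6%) were called, against 59.7% of all genes tested. Over all genes 28.5% were called higher and 31.2% lower. At least 2-fold changes were found for 5 members, KDM4B upward and TET1, TET3, KDM6A and ALKBH8 downward, while 26.2% of all genes were called and changed at least 2-fold. VC and VHL-KO samples were fully apart for 30 of the 35 members and for 64.7% of all genes. The median log2 fold change of the members was -0.02, beside -0.01 for all genes, and it was -0.215 without VHL-KO replicate 3. The median absolute log2 fold change was 0.52 for the members and 0.64 for all genes. Fewer cells that express a gene and less of its RNA per cell cannot be told apart in these bulk samples.

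Changes of the members went in part with the GC content of their transcripts. The median GC content was 57.6% for members called higher, 44.9% for members called lower and 53.0% for the others. Among the members called higher, KDM5A, KDM3A, KDM5B and PHYH had 42.7% to 44.6%, below the median of those called lower. Across the 35 members Spearman's rho between GC content and log2 fold change was 0.40, as a description of genes that share libraries. With the GC content and length offsets rho was -0.09, 11 members were called higher and 15 lower, and 29.1% of all genes were called higher and 31.4% lower. Such offsets would take away a biological change as well where it runs along GC content. With and without them, the same 7 members were called higher (KDM4B, KDM3A, KDM5A, KDM5B, KDM6B, ALKBH5 and PHYH) and the same 12 were called lower (KDM2B, KDM3B, PHF2, PHF8, KDM5C, KDM6A, TET1, TET3, ALKBH1, ALKBH8, OGFOD1 and ASPH). The part of GC content in each change was not tested, and the value with offsets is given beside the members for which it ends or turns the call.

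**Figure D1:**
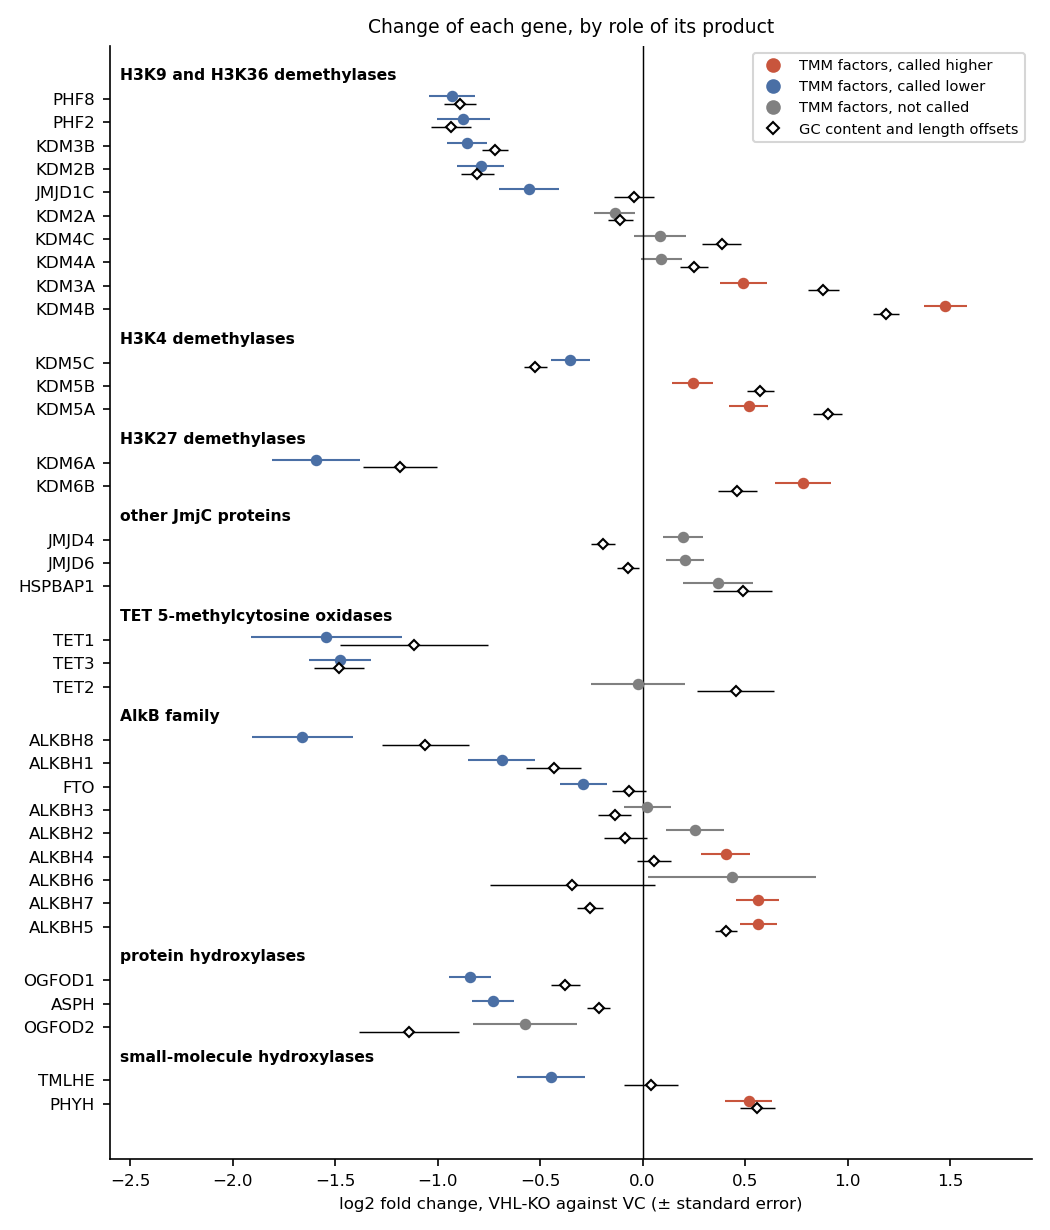
Log2 fold change of each member in VHL-KO against VC samples with its standard error, grouped by the role of its product; filled circles show the fit with TMM factors and are colored by call, and open diamonds show the fit with GC content and length offsets. KDM4B lies farthest to the right at 1.48, TET1, TET3, KDM6A and ALKBH8 lie left of -1 in both fits, and ALKBH7 lies right of 0 with TMM factors and left of 0 with the offsets.

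The demethylases of histone H3 lysines 9 and 36 changed in both directions. Of 10 such members, 2 were called higher, 5 lower and 3 were not called. KDM4B, which removes methyl groups from trimethylated and dimethylated H3K9, had the largest rise of the 35 members. It lies on chromosome 19 from 4969113 to 5153598 and was at 36.4, 44.4 and 37.3 CPM in VC and 104, 104 and 120 CPM in VHL-KO samples. The lowest VHL-KO sample was above the highest VC sample by far more than the spread within either group, and the log2 fold change was 1.48 ± 0.10 (estimate ± standard error, Benjamini-Hochberg adjusted p = 1.39e-11, edgeR quasi-likelihood test), or 1.19 with the offsets. KDM3A, a demethylase of monomethylated and dimethylated H3K9, was at 30.8, 28.9 and 35.3 CPM in VC and 40.6, 43.8 and 49.3 CPM in VHL-KO samples. The groups did not overlap, and KDM3A rose by 0.49 in log2 units (standard error 0.11, adjusted p = 0.000591, same edgeR test). With the offsets its log2 fold change was larger, at 0.88. KDM4C, a paralog of KDM4B, was at 16.4, 14.3 and 15.6 CPM in VC and 15.5, 17.0 and 16.7 CPM in VHL-KO samples. These values overlapped, and the log2 fold change was 0.09 (adjusted p = 0.590, same edgeR test). With the offsets KDM4C was called higher, at 0.39 (adjusted p = 0.0016, same edgeR test, 0.0016 to 0.832 across alternatives). KDM4A, at 0.09, was likewise called only with the offsets, at 0.25, and 40.2% of its exonic bases overlap another gene on the same strand.

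Promoter sequences are shown for KDM4B, KDM3A and KDM4C, which are known to be induced in hypoxia, and for TET3, a member that fell. They were taken from RefSeq on GRCh38.p14 and run from 250 bases before to 50 bases after an annotated start, and 33 of the 35 members had an entry. Both strands were searched for ACGTG and GCGTG, the core letters of the HIF response element, and capitals mark the matches in either orientation. The letters CACGTG read the same on both strands and count as 2 matches. The windows lie at chr19:4968863-4969162 for KDM4B, chr2:86441121-86441420 for KDM3A, chr9:6757723-6758022 for KDM4C and chr2:73984660-73984959 for TET3, all on the + strand. KDM3A and TET3 each have a further annotated start that is not shown.
KDM4B promoter: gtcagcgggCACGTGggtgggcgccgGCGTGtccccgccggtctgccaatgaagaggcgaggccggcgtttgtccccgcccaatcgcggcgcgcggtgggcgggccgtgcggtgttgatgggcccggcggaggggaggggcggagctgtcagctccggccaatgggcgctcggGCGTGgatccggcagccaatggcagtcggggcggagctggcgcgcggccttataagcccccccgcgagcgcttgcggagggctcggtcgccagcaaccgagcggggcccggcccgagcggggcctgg
KDM3A promoter: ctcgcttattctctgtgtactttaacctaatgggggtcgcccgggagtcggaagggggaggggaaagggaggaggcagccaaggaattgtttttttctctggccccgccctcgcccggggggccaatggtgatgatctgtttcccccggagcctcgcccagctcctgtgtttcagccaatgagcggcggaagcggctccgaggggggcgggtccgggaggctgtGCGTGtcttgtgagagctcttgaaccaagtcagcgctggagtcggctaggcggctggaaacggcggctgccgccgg
KDM4C promoter: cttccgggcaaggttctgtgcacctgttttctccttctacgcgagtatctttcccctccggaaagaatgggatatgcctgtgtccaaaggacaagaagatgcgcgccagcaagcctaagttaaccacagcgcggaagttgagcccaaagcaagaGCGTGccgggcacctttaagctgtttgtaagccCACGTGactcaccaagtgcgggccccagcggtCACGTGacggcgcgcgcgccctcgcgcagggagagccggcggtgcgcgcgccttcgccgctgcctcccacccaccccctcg
TET3 promoter: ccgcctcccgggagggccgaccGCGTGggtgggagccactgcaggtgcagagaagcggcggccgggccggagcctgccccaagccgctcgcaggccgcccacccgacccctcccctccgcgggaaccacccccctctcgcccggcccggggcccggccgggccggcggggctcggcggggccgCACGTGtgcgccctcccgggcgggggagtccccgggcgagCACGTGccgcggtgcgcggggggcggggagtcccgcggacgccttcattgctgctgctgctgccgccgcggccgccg

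The window of KDM4B held 4 matches, that of KDM3A 1, that of KDM4C 5 and that of TET3 5. TET3, which fell, had as many matches in the window shown as KDM4C. TET3 was picked as an example, and the windows of KDM3B, PHF2 and KDM5C, which fell too, held 0. KDM4C was not called with TMM factors and was called higher with the offsets. The window at the further start held 0 matches for TET3 and 1 for KDM3A. At least 1 match was found for 26 of the 33 members (78.8%), against 52.4% of 27305 genes in the table, but members had more annotated starts per gene. Those 27305 genes were taken whether or not they had reads here, while all members were tested. The windows were not matched for GC content, so that the shares are a description only. By start, either motif was in 68.6% of the members' windows and 48.4% of all windows, ACGTG was in 19.6% of the members' 51 windows and 21.4% of all 35116 windows, and GCGTG was in 58.8% and 36.5%. A match was found for 8 of 9 members called higher, 8 of 14 called lower and 10 of 10 not called. A match is a description of the letters in the window and does not show that a factor binds there.

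The other members of the H3K9 and H3K36 group fell or were not called. PHF8, an X-linked demethylase of H3K9 and H4K20, was at 37.9, 39.5 and 39.4 CPM in VC and 18.9, 20.1 and 22.4 CPM in VHL-KO samples. Its paralog PHF2 was at 20.55, 21.5 and 21.5 CPM in VC and 10.9, 11.0 and 12.7 CPM in VHL-KO samples. The groups did not overlap for either gene. PHF8 fell by 0.93 and PHF2 fell by 0.875 in log2 units (Benjamini-Hochberg adjusted p = 1.49e-07 and 3.0e-06, edgeR quasi-likelihood test), and both were close to these values with the offsets. KDM3B, the paralog of KDM3A, fell by 0.86, and KDM2B, which targets H3K36 and recruits a Polycomb complex to CpG islands, fell by 0.79 on the log2 scale. JMJD1C fell by 0.555 on the log2 scale and was not called with the offsets, at -0.04 (adjusted p = 0.725, same edgeR test, 3.12e-05 to 0.742 across alternatives). KDM2A had a log2 fold change of -0.14 and was called lower with library size alone, at -0.33 (adjusted p = 0.00676, same edgeR test, 0.00676 to 0.854 across alternatives).

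Of the 3 demethylases of H3 lysine 4, KDM5A and KDM5B were called higher and KDM5C lower. KDM5C, an X-linked gene, was at 139, 151 and 134 CPM in VC and 102, 110 and 120 CPM in VHL-KO samples. The groups did not overlap, and KDM5C fell by 0.35 in log2 units (standard error 0.09, Benjamini-Hochberg adjusted p = 0.00233, edgeR quasi-likelihood test), with -0.52 under the offsets. KDM5A was at 59.2, 56.3 and 56.5 CPM in VC and 83.3, 79.0 and 83.8 CPM in VHL-KO samples, and all VHL-KO samples were higher than all VC samples. It rose by 0.52 in log2 units (standard error 0.09, adjusted p = 3.88e-05, same edgeR test) and was at 0.90 with the offsets. KDM5B had a smaller log2 fold change, 0.24 (adjusted p = 0.0357, same edgeR test), that was not called under 5 of 15 alternatives. It was 0.05 with library size alone, 0.21 without the filter on reads, 0.23 with VC replicate 1 left out, 0.26 with VHL-KO replicate 1 left out and 0.19 with VHL-KO replicate 3 left out (adjusted p = 0.668, 0.123, 0.129, 0.0647 and 0.148, same edgeR test, 5.75e-08 to 0.668 across alternatives), and 0.575 with the offsets.

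The 2 demethylases of H3 lysine 27 moved in opposite directions. KDM6A, also known as UTX, lies on chromosome X from 44873188 to 45112779 and was at 8.93, 8.24 and 11.5 CPM in VC and 2.47, 2.50 and 4.59 CPM in VHL-KO samples. VHL-KO replicate 3 was the highest of its group and still below all VC samples, and KDM6A fell by 1.59 in log2 units (standard error 0.22, Benjamini-Hochberg adjusted p = 7.68e-07, edgeR quasi-likelihood test). KDM6B, also known as JMJD3, was at 11.5, 15.04 and 11.5 CPM in VC and 20.5, 21.6 and 23.2 CPM in VHL-KO samples. It rose by 0.78 in log2 units (standard error 0.14, adjusted p = 2.68e-05, same edgeR test), and the groups did not overlap. With the offsets the changes were smaller and in the same directions, at -1.18 for KDM6A and 0.46 for KDM6B.

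**Figure D2:**
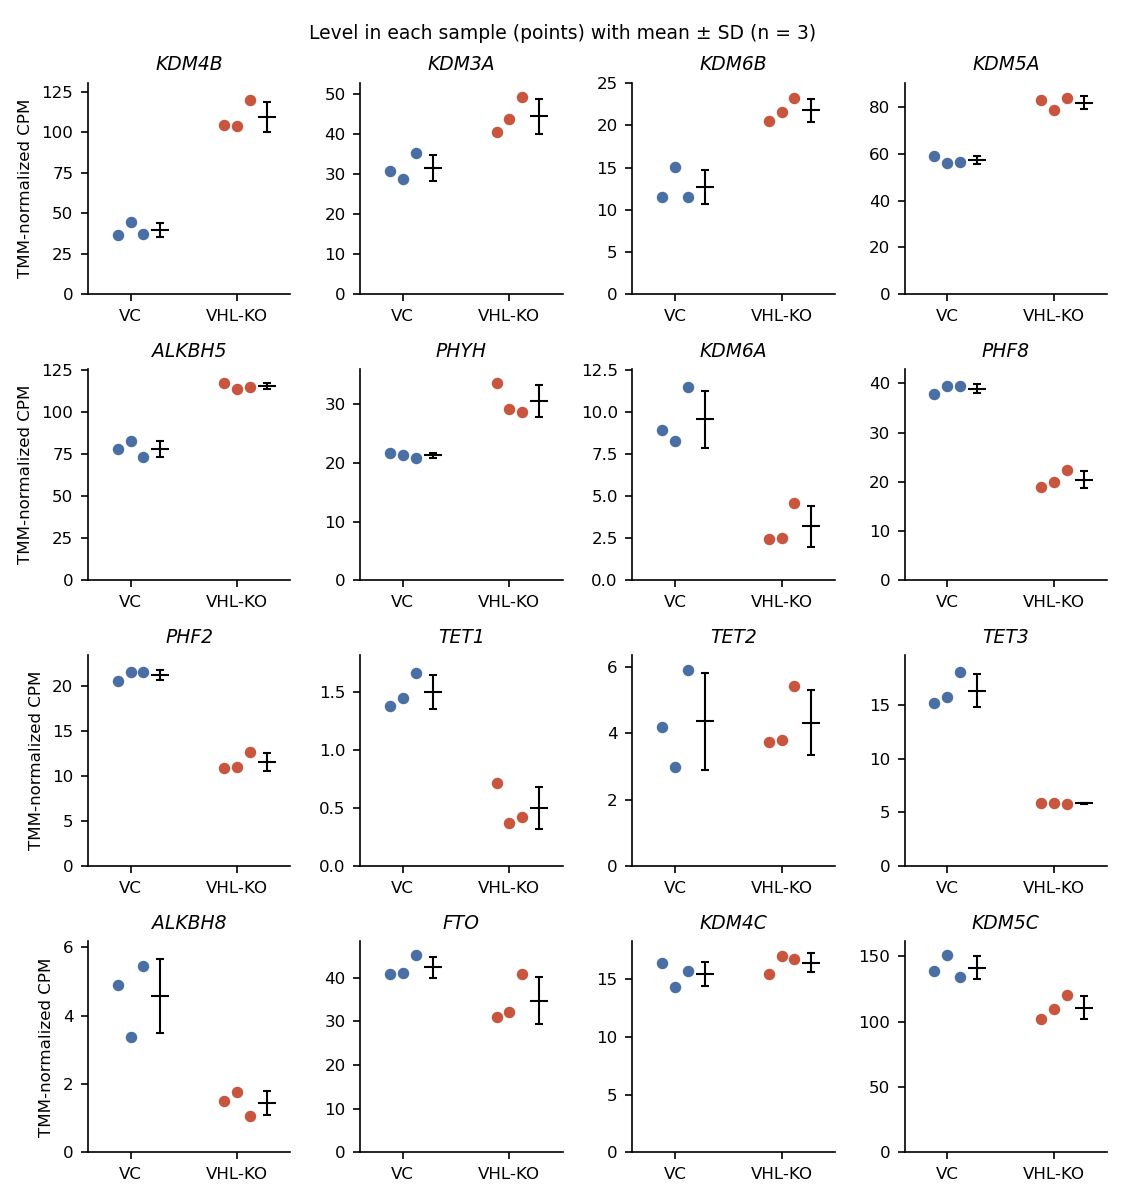
TMM-normalized CPM of 16 members in each of the 3 VC (blue) and 3 VHL-KO (red) samples, on linear axes that start at 0, with the mean and SD of each group in black. The groups are apart for KDM4B, with 36.4 to 44.4 CPM in VC and 104 to 120 CPM in VHL-KO samples, and overlap for TET2 and KDM4C.

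Of the 3 TET genes, whose products convert 5-methylcytosine to 5-hydroxymethylcytosine, 2 were called lower. TET3 lies on chromosome 2 from 73984910 to 74108176 and was at 15.2, 15.7 and 18.0 CPM in VC and 5.91, 5.84 and 5.81 CPM in VHL-KO samples. The VHL-KO samples were close to each other and far below the VC samples, and TET3 fell by 1.48 on the log2 scale with and without the offsets (standard error 0.15, Benjamini-Hochberg adjusted p = 7.13e-09, edgeR quasi-likelihood test). TET1, the lowest of the 3 genes, had counts of 47, 43 and 63 for VC and of 19, 8 and 9 for VHL-KO, or 1.38, 1.45 and 1.66 CPM and 0.711, 0.371 and 0.422 CPM. The groups did not overlap at these low counts, and TET1 fell by 1.54 in log2 units (standard error 0.37, adjusted p = 0.00088, same edgeR test), or -1.115 with the offsets. TET2 was at 4.19, 2.99 and 5.90 CPM in VC and 3.74, 3.799 and 5.44 CPM in VHL-KO samples. Its groups overlapped across nearly their whole range, and its log2 fold change was -0.02 ± 0.23 (estimate ± standard error, adjusted p = 0.934, same edgeR test). With the offsets TET2 was called higher, at 0.45 (adjusted p = 0.0448, same edgeR test, 0.0206 to 0.993 across alternatives).

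Genes of DNA methylation and of base excision, which removes oxidized 5-methylcytosine, are given for comparison. Of 5 genes, 1 was called higher and 2 lower, against 28.5% and 31.2% of all genes. DNMT1, the maintenance methyltransferase, was at 215, 243 and 217.5 CPM in VC and 45.4, 50.2 and 51.9 CPM in VHL-KO samples, and fell by 2.20 on the log2 scale. UHRF1, which recruits DNMT1 to hemimethylated DNA, had the largest fall of the list, from 118, 145 and 133 CPM to 15.1, 19.1 and 23.8 CPM, a log2 fold change of -2.77. The de novo methyltransferase DNMT3A rose by 0.565 in log2 units (Benjamini-Hochberg adjusted p = 0.000359, edgeR quasi-likelihood test), and DNMT3B had -0.06 as log2 fold change (adjusted p = 0.621, same edgeR test). TDG, the glycosylase of the list, was at -0.13 and not called, and was called higher with the offsets, at 0.44. DNA methylation itself was not measured here.

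The AlkB family had 3 members called higher, 3 lower and 3 not called among 9. ALKBH8, a methyltransferase and hydroxylase of wobble uridines in tRNA, had the largest fall of the members with TMM factors. It was at 4.89, 3.36 and 5.45 CPM in VC and 1.497, 1.76 and 1.08 CPM in VHL-KO samples, with no overlap, and fell by 1.66 in log2 units (standard error 0.25, Benjamini-Hochberg adjusted p = 3.0e-06, edgeR quasi-likelihood test). Its transcript had the lowest GC content of the members, 39.2%, and the log2 fold change was -1.06 with the offsets, where TET3, KDM6A, OGFOD2 and TET1 fell further. Without VHL-KO replicate 3 ALKBH8 was at -1.49 and KDM6A at -1.94. ALKBH5, a demethylase of N6-methyladenosine (m6A) in mRNA, was at 77.8, 83.0 and 73.1 CPM in VC and 117, 114 and 115 CPM in VHL-KO samples. The groups were apart, and ALKBH5 rose by 0.565 in log2 units (standard error 0.09, adjusted p = 9.78e-06, same edgeR test) and by 0.41 with the offsets.

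FTO, the other m6A demethylase, was at 40.8, 41.1 and 45.2 CPM in VC and 31.1, 32.1 and 40.8 CPM in VHL-KO samples. VHL-KO replicate 3 was level with the lowest VC sample, and the log2 fold change was -0.29 ± 0.115 (estimate ± standard error, Benjamini-Hochberg adjusted p = 0.0333, edgeR quasi-likelihood test). FTO was not called under 9 of 15 alternatives, among them the offsets, at -0.07. It was -0.31 or -0.23 with VC replicate 1 or 3 left out and -0.21 or -0.24 with VHL-KO replicate 1 or 2 left out (adjusted p = 0.0593, 0.0872, 0.193 and 0.15, same edgeR test, 0.00172 to 0.504 across alternatives). ALKBH7, a mitochondrial protein, was at 77.8, 90.8 and 70.1 CPM in VC and 122, 125 and 104 CPM in VHL-KO samples. It rose by 0.56 in log2 units (adjusted p = 6.44e-05, same edgeR test) without overlap, but its transcript had the highest GC content of the members, 64.8%, and with the offsets it was called lower, at -0.26 (adjusted p = 0.00129, same edgeR test, 2.72e-08 to 0.00341 across alternatives). The direction of ALKBH7 thus turned with the treatment of GC content and length.

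ALKBH1, which acts on tRNA and mitochondrial nucleic acids, fell by 0.69 on the log2 scale and was at -0.43 with the offsets. ALKBH4 had a log2 fold change of 0.41 and was not called with the offsets, at 0.055, or with library size alone, at 0.22 (Benjamini-Hochberg adjusted p = 0.588 and 0.125, edgeR quasi-likelihood test, 0.000303 to 0.59 across alternatives), and 25.6% of its exonic bases overlap another gene on the opposite strand. The DNA repair enzymes ALKBH2 and ALKBH3 had log2 fold changes of 0.26 and 0.02 and were not called. Without VC replicate 2 ALKBH2 was called higher, at 0.38 (adjusted p = 0.0241, same edgeR test, 0.0241 to 0.707 across alternatives). ALKBH6 had between 15 and 24 counts per sample and a log2 fold change of 0.44 with a standard error of 0.41. With the offsets ALKBH6 was at -0.34, and it was called in neither fit. Another gene on the same strand overlaps 25.1% of its exonic bases.

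Other m6A genes were compared with ALKBH5 and FTO. Of 13 writers and readers, 1 was called higher and 8 lower, with a median log2 fold change of -0.40. The shares over all genes were 28.5% higher and 31.2% lower. With the offsets 4 were higher and 6 lower, with a median of -0.14. ZC3H13, a component of the writer complex, rose by 0.73 on the log2 scale, and YTHDC2, a reader with helicase activity, fell by 1.34 (Benjamini-Hochberg adjusted p = 1.11e-06 and 9.42e-07, edgeR quasi-likelihood test). With the offsets YTHDC2 was at -0.80, and METTL3, the catalytic writer, was lower at -1.27.

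None of the 3 other JmjC proteins was called with TMM factors. JMJD6, known for lysine hydroxylation of splicing factors, was at 150, 161 and 135 CPM in VC and 181, 168 and 165 CPM in VHL-KO samples. Its groups did not overlap, and the log2 fold change was 0.21 ± 0.09 (estimate ± standard error, Benjamini-Hochberg adjusted p = 0.0571, edgeR quasi-likelihood test). JMJD6 was called higher under 5 of 15 alternatives, at 0.29 without VC replicate 2, and had a log2 fold change of -0.07 with the offsets (adjusted p = 0.00249 and 0.272, same edgeR test, 0.00249 to 0.897 across alternatives). JMJD4 had a log2 fold change of 0.20. It was 0.29 and called higher without VC replicate 2, and -0.19 and called lower with the offsets (adjusted p = 0.0042 and 0.00744, same edgeR test, 0.0042 to 0.942 across alternatives). Of the exonic bases of JMJD4, 53.8% overlap another gene on the opposite strand. HSPBAP1 had a log2 fold change of 0.37 and was called higher without VHL-KO replicate 3 and with the offsets, at 0.49 in both (adjusted p = 0.0237 and 0.00597, same edgeR test, 0.00563 to 0.387 across alternatives).

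Of the 3 protein hydroxylases, 2 were called lower. ASPH, the aspartyl and asparaginyl β-hydroxylase of EGF-like domains, was at 177, 162 and 217 CPM in VC and 104, 117 and 114 CPM in VHL-KO samples. All VHL-KO samples were lower than all VC samples, and ASPH fell by 0.73 in log2 units (standard error 0.10, Benjamini-Hochberg adjusted p = 1.3e-06, edgeR quasi-likelihood test), with -0.21 under the offsets. OGFOD1, a prolyl hydroxylase of the ribosomal protein RPS23, fell by 0.84 on the log2 scale and was at -0.38 with the offsets. OGFOD2 had between 31 and 90 counts per sample and a log2 fold change of -0.57 that was not called. It was called lower without VHL-KO replicate 3, at -0.78, with library size alone, at -0.77, and with the offsets, at -1.14 (adjusted p = 0.0172, 0.0136 and 0.00045, same edgeR test, 0.000399 to 0.181 across alternatives). Its exonic bases overlap other genes over 67.6% on the same strand and 36.1% on the opposite strand, so that its counts are uncertain.

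Among the enzymes of small molecules, PHYH, the peroxisomal hydroxylase of phytanoyl-CoA, was at 21.8, 21.4 and 20.9 CPM in VC and 33.7, 29.2 and 28.7 CPM in VHL-KO samples. It rose by 0.52 in log2 units (standard error 0.12, Benjamini-Hochberg adjusted p = 0.00046, edgeR quasi-likelihood test) and by 0.56 with the offsets, and the groups did not overlap. TMLHE, which starts carnitine synthesis from trimethyllysine, had -0.45 as log2 fold change (adjusted p = 0.0241, same edgeR test) that was not called under 7 of 15 alternatives. It was -0.46 or -0.35 with VC replicate 1 or 3 left out and -0.42 with VHL-KO replicate 2 or 3 left out (adjusted p = 0.066, 0.109, 0.0719 and 0.0594, same edgeR test, 0.00265 to 0.831 across alternatives), and 0.04 with the offsets.

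Levels of different genes were compared as CPM per kb of canonical transcript. JMJD6 had the highest level per length in VC cells, with a mean ± SD over 3 samples of 91.8 ± 8.01 CPM per kb, and ALKBH7 was next at 82.0 ± 10.8. In VHL-KO cells ALKBH7 was at 121 ± 12.2 and JMJD6 at 106 ± 5.40 CPM per kb, an order that rests on the rise of ALKBH7, which turned to -0.26 with the offsets, against -0.07 for JMJD6. Among the histone demethylases KDM5C was highest in VC cells, at 24.3 ± 1.53 CPM per kb, and KDM4B reached 19.5 ± 1.62 in VHL-KO cells, close to the 19.0 ± 1.53 of KDM5C. The TET genes and the H3K27 demethylases were lower. TET3 was at 1.35 ± 0.127, TET2 at 0.455 ± 0.152 and TET1 at 0.155 ± 0.0153 CPM per kb in VC cells. In VHL-KO cells TET3, at 0.485 ± 0.00428, and TET2, at 0.451 ± 0.100, did not differ beyond their spread. With the offsets the log2 fold change was 0.45 for TET2 and -1.48 for TET3, so that this closeness depends on the fit. KDM6B and KDM6A were at 1.88 ± 0.304 and 1.57 ± 0.277 CPM per kb in VC and at 3.24 ± 0.202 and 0.523 ± 0.200 in VHL-KO cells.

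**Figure D3:**
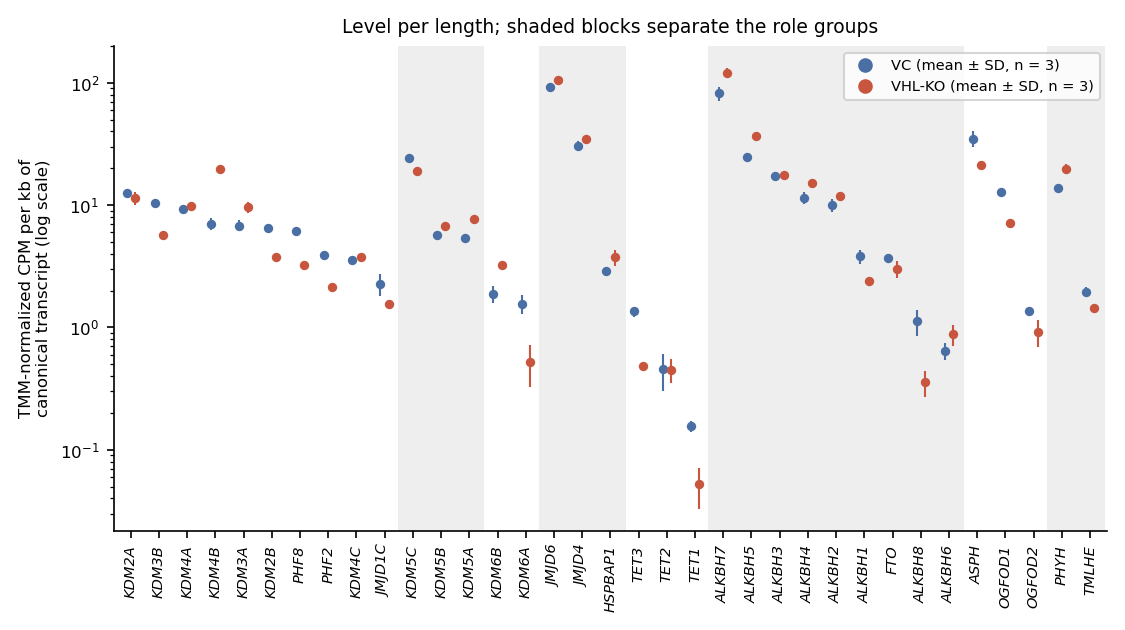
Level of each member per kb of its canonical transcript, on a log axis, as the mean and SD of 3 VC (blue) and 3 VHL-KO (red) samples, with the members of each role group side by side. JMJD6 is highest at 91.8 CPM per kb in VC cells and TET1 lowest at 0.155.

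Ratios of raw counts within a sample do not depend on the scaling between libraries. They were computed for 11 pairs of related members, chosen after the values were seen, and are given as a description with no test. The ratio of KDM3A to KDM3B was 0.454, 0.404 and 0.507 for VC against 1.06, 1.19 and 1.23 for VHL-KO, a log2 change of 1.35. The ratio of KDM6B to KDM6A was 1.29, 1.82 and 1.00 for VC against 8.30, 8.65 and 5.05 for VHL-KO, a log2 change of 2.42 that was the largest of the pairs without offsets. That of KDM4B to KDM4A was 0.8765, 1.06 and 0.919 for VC against 2.40, 2.33 and 2.72 for VHL-KO, and that of KDM5A to KDM5C was 0.427, 0.373 and 0.422 for VC against 0.815, 0.719 and 0.699 for VHL-KO. For TET2 to TET3 the ratio was 0.276, 0.191 and 0.327 for VC against 0.633, 0.651 and 0.935 for VHL-KO, and for ALKBH5 to FTO it was 1.905, 2.02 and 1.62 for VC against 3.77, 3.53 and 2.82 for VHL-KO. The ratios of KDM4C to KDM4A and of TET1 to TET3 overlapped between the groups. PHF8 and PHF2, which both fell, had ratios between 1.73 and 1.84 in the 6 samples, a log2 change of -0.05 that was 0.045 with the offsets. With the offsets the log2 change was 1.60 for KDM3A to KDM3B, 1.65 for KDM6B to KDM6A, 0.94 for KDM4B to KDM4A and 1.93 for TET2 to TET3. It went from 0.86 to 0.47 for ALKBH5 to FTO and from 0.87 to 1.43 for KDM5A to KDM5C.

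**Figure D4:**
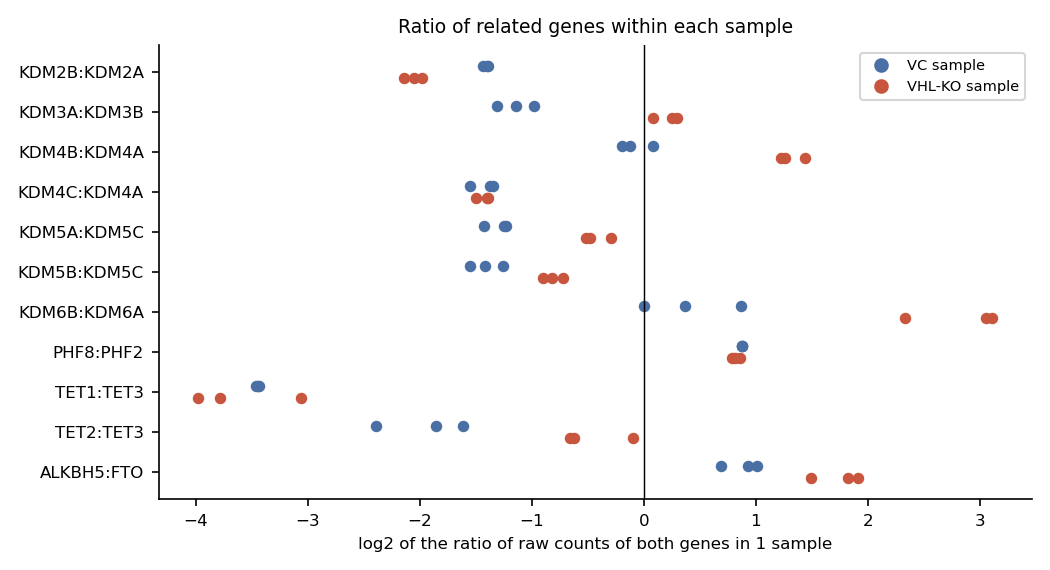
Log2 ratio of the raw counts of 2 related genes in each VC (blue) and VHL-KO (red) sample, for 11 pairs. The group means differ by 2.42 on the log2 scale for KDM6B to KDM6A, and the groups overlap for KDM4C to KDM4A and TET1 to TET3.

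The X-linked members are KDM5C from 53176283 to 53225422, PHF8 from 53936676 to 54048958, KDM6A and TMLHE, and all 4 were called lower. Of the 541 tested X-linked genes 38.8% were called lower, with a median log2 fold change of -0.19. With the offsets 35.9% were called lower, with a median of -0.10. The shares of all genes called lower were 31.2% and, with the offsets, 31.4%. TMLHE was not among the 3 X-linked members called lower with the offsets. The grouping by chromosome was made after the values were seen.

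The members were set beside other genes of the same biochemistry. Of 27 other 2-oxoglutarate oxygenases 24 were tested, and 10 were called higher and 7 lower, with a median log2 fold change of 0.04. The shares over all genes were 28.5% higher and 31.2% lower. P4HTM, a transmembrane prolyl hydroxylase, had the largest rise of these with TMM factors, from 14.2, 13.2 and 12.1 CPM in VC to 32.5, 37.8 and 40.1 CPM in VHL-KO samples, a log2 fold change of 1.49. With the offsets it was 0.94, and KDM7A had the largest rise at 1.835. ASPHD2, a relative of ASPH, had the largest fall with TMM factors, with counts of 67, 37 and 52 for VC and of 12, 7 and 24 for VHL-KO and a log2 fold change of -1.285. With the offsets RIOX1, among others, was lower at -1.53. The value of ASPHD2 was -1.055 without VC replicate 1 (Benjamini-Hochberg adjusted p = 0.0571, edgeR quasi-likelihood test, 0.000491 to 0.0571 across alternatives), and -1.95 without VHL-KO replicate 3, so that its rank rests on single samples. Another gene on the opposite strand overlaps 47.1% of its exonic bases. The FAD-dependent histone demethylases, which need no 2-oxoglutarate, were both called lower. KDM1A was at 107, 112 and 105 CPM in VC and 73.4, 64.6 and 72.9 CPM in VHL-KO samples and fell by 0.615 on the log2 scale, and KDM1B fell by 0.90.

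The histone lysine methyltransferases, which act in opposition to the demethylases, were mostly lower. Of 24 tested genes 17 were called lower and 2 higher, with a median log2 fold change of -0.485. Over all genes 31.2% were called lower and 28.5% higher. With the offsets 14 were lower and 3 higher, with a median of -0.32, and with upper quartile factors the median was -0.37. SUV39H2, an H3K9 methyltransferase, had the largest fall with TMM factors, from 23.5, 19.8 and 29.0 CPM to 6.32, 9.03 and 7.92 CPM, a log2 fold change of -1.64. With the offsets it was -1.075, and SUV39H1, at -1.65, and NSD2, at -1.38, were lower. KMT5C, an H4K20 methyltransferase, had a log2 fold change of 0.50 that was 0.28 without VHL-KO replicate 1 and -0.02 with the offsets (Benjamini-Hochberg adjusted p = 0.0235, 0.232 and 0.943, edgeR quasi-likelihood test, 0.00529 to 0.943 across alternatives). Of 14 enzymes that make or use 2-oxoglutarate, succinate, fumarate or related acids, 8 were called lower and 2 higher. Their median log2 fold change was -0.46, and 11 were called lower and 1 higher with the offsets. For all genes the offsets gave 31.4% lower and 29.1% higher. SDHA, a subunit of succinate dehydrogenase, had the largest rise of this list, 0.99 on the log2 scale (adjusted p = 4.06e-05, same edgeR test). Metabolite levels and enzyme activities were not measured here.

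**Figure D5:**
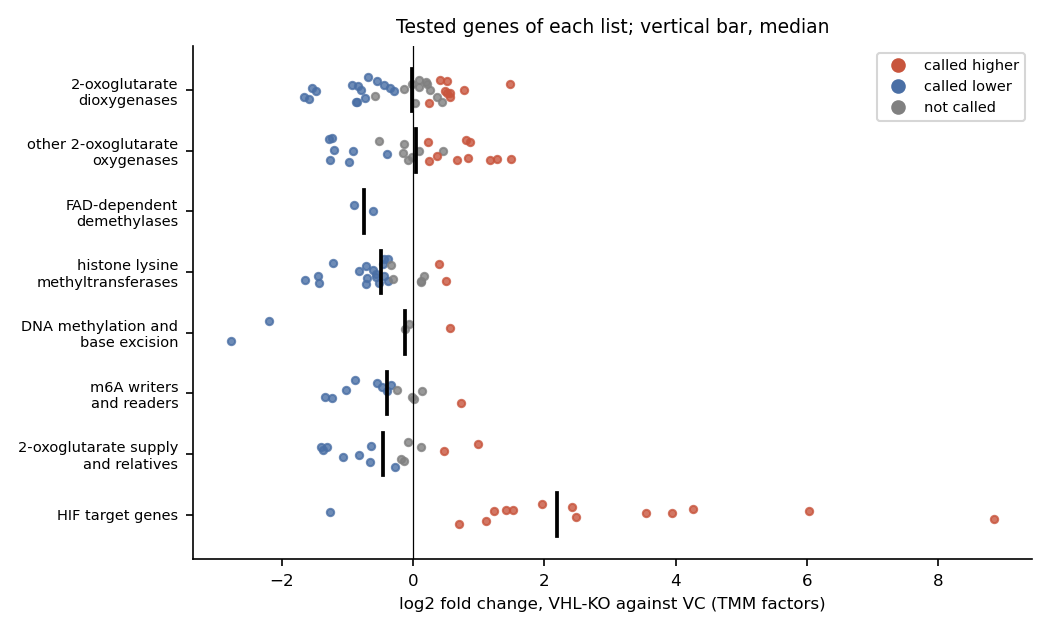
Log2 fold change in VHL-KO against VC samples of each tested gene of the members and of 7 related lists, colored by call, with the median of each list as a vertical bar. The medians are -0.02 for the members, -0.485 for the histone lysine methyltransferases and 2.19 for the HIF target genes, and the point farthest to the right is the fitted value of CA9, which had at most 2 counts in VC samples.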

How the data were processed

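Total RNA from 3 VC and 3 VHL-KO samples of Caki-1 cells was sequenced by the authors. The deposited values are raw counts of reads per gene, which the authors made from reads trimmed with Trim Galore and cutadapt (at least 20 nt kept), aligned with STAR to GRCh38.p13, restricted to unique alignments and counted with HTSeq, per the submitters' processing notes and the study's methods. The annotation release and the strandedness of counting are not given in the sources used here. Replicates differed by more than sampling noise (chi-square per degree of freedom 6.43 to 35.3).

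Samples were grouped by the labels. The comparison of VHL-KO against VC used edgeR 4.0.16 in R 4.3.3 with TMM factors and a two-sided quasi-likelihood F test. P-values were adjusted by Benjamini-Hochberg over 17401 genes that reached 10 reads in 1 or more samples, with a threshold of 0.05. The functions were first tested on simulated counts with 200 changed genes. In the data 10394 genes were called, so that the simulation does not test the scaling used here. The standard error is the absolute log2 fold change divided by the square root of F. A count of 0 allows up to 3 counts, or 0.0790 to 0.141 CPM. The alternatives were DESeq2 1.42.0, upper quartile factors, relative log expression factors, library size alone, 2 other filters on reads, each replicate left out, the replicate number as a block, and library-specific offsets for transcript GC content and length from natural splines (5 degrees of freedom), also with the block. The offsets remove any biological change that follows GC content too. Positions, lengths and GC contents of genes were taken from GENCODE release 44 (GRCh38), matched for 17355 tested genes. Python 3.11.15 with matplotlib 3.10.9 drew the figures.

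The members and lists were chosen with earlier results of these data known. Values in every sample are given for the 5 called members with the largest rise and the 5 with the largest fall at a mean of at least 1 CPM, the member with the highest level per length in each role group, and KDM3A, KDM4B, KDM4C, KDM5C, KDM6B, TET1, TET2, TET3, ALKBH5 and FTO. From each related list the called genes with the largest rise and the largest fall are named. For the enzymes that make or use 2-oxoglutarate only the largest rise is named.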

Additional observations from a re-analysis of the deposited data

How the results depend on the processing

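Of the 35 members, 20 had the same call under every alternative that could be fitted (15, or 14 for TET1, which does not reach 10 reads in every sample), among them 6 called higher and 12 called lower. The number of members called higher lay between 7 and 13 and the number called lower between 13 and 17. The scaling moved the balance: with library size alone 3763 genes and 7 members were called higher and 6740 genes and 17 members lower, and with upper quartile factors 5712 genes and 13 members were higher and 4668 genes and 13 members lower, against 4958 and 9 higher and 5436 and 15 lower with TMM factors. Medians over all genes were -0.20 under library size scaling and 0.10 under upper quartile scaling, and the members' medians were -0.22 and 0.09. With 1 replicate left out, the members' median lay between -0.215 and 0.058.

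With library size alone, 0 methyltransferases were called higher by edgeR. This count lay between 1 and 3 with a replicate left out. VHL was at -0.53 under library size scaling and at -0.22 under upper quartile scaling (Benjamini-Hochberg adjusted p = 0.000292 and 0.0905, edgeR quasi-likelihood test, range 0.000292 to 0.729), and between -0.39 and -0.28 with a replicate left out. With the GC content and length offsets it was -0.036, and -0.040 with the replicate block added. In these 2 fits, respectively, ALKBH7 was at -0.256 and -0.258, JMJD4 at -0.192 and -0.193, TET2 at 0.454 and 0.471, TMLHE at 0.041 and 0.039, and KMT5C at -0.016 and -0.037. In both, 2 genes of the DNA methylation list, 4 m6A genes (2 with upper quartile factors) and 1 gene of the 2-oxoglutarate supply list were called higher. The cause was not tested.

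Deviations of samples with the same replicate number had correlations of 0.0627, -0.0004485 and 0.02825. VC replicates 1 and 3 correlated best with the VHL-KO replicate of the same number, and VC replicate 2 with VHL-KO replicate 3. No correlation between a VC and a VHL-KO sample was above 0.0627, so that the numbers were not taken to pair the samples. With the replicate block 4847 genes were called higher and 5437 lower, among them 9 and 15 members, and VHL was at -0.333. TET1 and ALKBH6 had the fewest reads of the members, and whether depth limited their calls was not tested. TET1 was called lower under every alternative fitted for it.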
